A study of Mus musculus with 6 samples.

Results

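The genes described here are 45 genes of the NRF2, glutathione and antioxidant system, listed by symbol. They were read on 6 Affymetrix mouse arrays of 3T3-L1 adipocytes. The 3T3-L1 line is of mouse preadipocytes, which hormones turn into fat cells in culture. For each gene the brightest probe set on average was taken, among those annotated to 1 gene, which gave values for 41 of the 45 genes, out of 18194 genes measured in this way. Prdx1 and Ftl1 had only probe sets shared with other genes, 5 and 3 in number, and Prdx5 and Prdx6 had none in the annotation used here, so these 4 are without a value. All 41 measured genes reached the median of the table (6.55 on the log2 scale, used as a detection level) on at least 1 array, and 38 did so on all 6.

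Ritonavir is a protease inhibitor used against HIV, tenofovir blocks the viral reverse transcriptase, and CLA is conjugated linoleic acid, whose isomers differ in the place and geometry of their conjugated double bonds. In the second of 2 experiments ritonavir at 20 µM was combined with t10,c12-CLA at 100 µM, with c9,t11-CLA at 100 µM or with 0.1% DMSO, the vehicle of the fatty acids. The first experiment had ritonavir alone at 20 µM, tenofovir at 1 µM and the vehicle ethanol at 0.1%. Vehicle doses are stated for the DMSO and ethanol controls and not for the CLA or drug groups, so whether vehicle was matched in the comparisons is not known here. Treatment lasted 5 days and followed a 2-day induction, so that every group, controls included, had been exposed to insulin, 3-isobutyl-1-methylxanthine and dexamethasone, and then to insulin. RNA of 4 replicate experiments was pooled onto 1 array per group, so no spread between replicates exists, no difference was tested, and every difference below is between single arrays. The arrays are called by their additions below, and the t10,c12-CLA, c9,t11-CLA and DMSO arrays all carry ritonavir.

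NRF2, encoded by Nfe2l2, is a transcription factor that KEAP1 holds in the cytoplasm and marks for degradation. Electrophiles and oxidants modify KEAP1, and NRF2 then enters the nucleus and, with small MAF proteins, binds antioxidant response elements near genes for glutathione synthesis, quinone reduction, thioredoxin recycling and glutathione conjugation. Since this control acts mainly on the NRF2 protein, the level of Nfe2l2 RNA need not follow it. Mature fat cells also rely on catalase, superoxide dismutases and the NADPH-producing pentose phosphate pathway, which feeds both lipid synthesis and glutathione recycling.

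Upstream stretches of 8 of these genes are shown because they carry the core of the antioxidant response element, searched as TGACNNNGC on both strands. They come from RefSeq promoter windows on GRCm38.p6, which span 250 bases before to 50 after a gene's start, and they are written 5′ to 3′ on the strand of the gene, with the core or its reverse complement in capitals. Gclm, Txnrd1 and Gsta3 lie at chr3:122245403-122245451 (plus strand), chr10:82859094-82859142 (plus) and chr1:21240444-21240492 (plus). Nfe2l2, Sod1 and Mgst1 lie at chr2:75704875-75704913 (minus), chr16:90220686-90220734 (plus) and chr6:138140451-138140499 (plus). Gstm5 and Mt2 lie at chr3:107895792-107895840 (plus) and chr8:94172519-94172567 (plus).
Gclm: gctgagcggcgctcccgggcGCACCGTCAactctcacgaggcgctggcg
Txnrd1: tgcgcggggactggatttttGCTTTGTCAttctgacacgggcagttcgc
Gsta3: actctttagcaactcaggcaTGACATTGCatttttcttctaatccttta
Nfe2l2: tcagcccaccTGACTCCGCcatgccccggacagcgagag
Sod1: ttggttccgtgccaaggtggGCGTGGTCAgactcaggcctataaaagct
Mgst1: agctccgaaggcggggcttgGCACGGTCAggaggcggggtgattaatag
Gstm5: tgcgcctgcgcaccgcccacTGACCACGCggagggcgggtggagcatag
Mt2: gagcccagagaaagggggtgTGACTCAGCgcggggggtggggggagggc

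Of the 45 genes, 39 had at least 1 such window, and the windows of 11 of them (28.2%) held the core, against 14.0% of the 27025 genes in the table. The remaining 3 of the 11 are Srxn1 and Pgd, where the core lies just after the start, and Prdx1, which has no value here. In Mt2 and Prdx1 the site reads TGACTCAGC and so also contains TGACTCA, the site of AP-1 factors. The core of the metal response element, TGCACNC or TGCGCNC on either strand, was found for 10 of the 39 genes (25.6%), against 28.2% of all genes, with 4 sites for Mt2 and 3 each for Mt1 and Gclm. A match in such a window is a description of its letters, and elements that lie farther from the start were not searched.

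The t10,c12-CLA array stood apart from the other arrays in some of the glutathione and NRF2 target genes, and not in all of them. Against DMSO, Gsta2 was 5.64-fold higher, Slc7a11 1.93-fold, Gclm 1.90-fold and Nqo1 1.86-fold, while the superoxide dismutases, catalase and 2 of the 3 pentose phosphate genes lay below the DMSO array. Gsta2 alone of the 41 genes was at least 2-fold higher and 0 were 2-fold lower, where 0.783% and 1.05% of all 12386 detected genes were. At 1.5-fold, 8 of 41 were higher, where 3.11% of all detected genes were, and 1 of 41, Sod3, was lower, where 3.96% were. The median over the 41 genes was 0.08 on the log2 scale, beside 0.02 over all detected genes. The genes were listed with earlier results of these data known, so these shares describe the list and cannot test it.

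**Figure D1:**
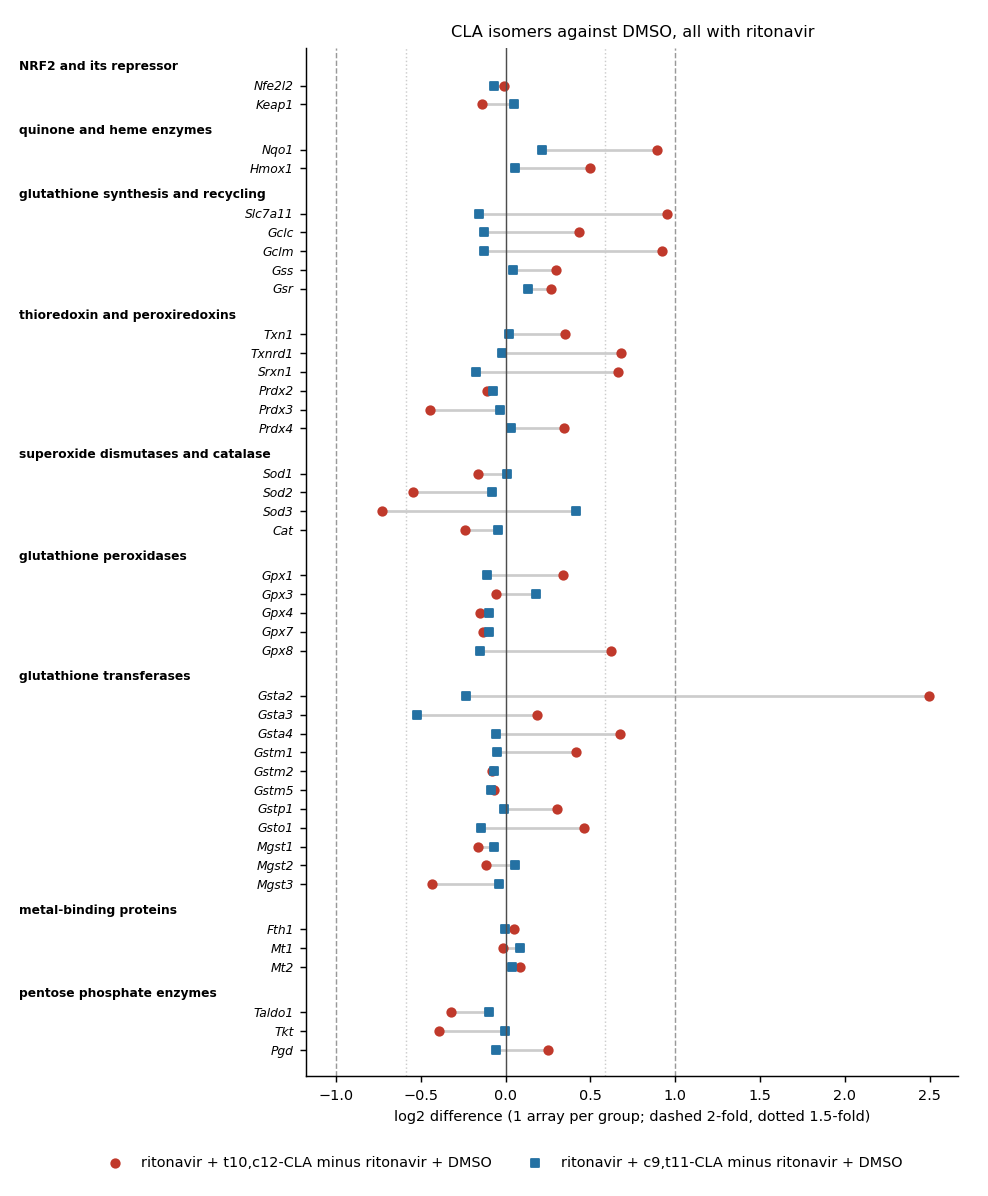
Log2 differences from the array of ritonavir with DMSO for the 41 measured genes, by role group, with 1 array per group. Red circles are ritonavir with t10,c12-CLA and blue squares ritonavir with c9,t11-CLA. The red circles of the glutathione synthesis group all lie right of 0, up to 0.95 for Slc7a11, and Gsta2 reaches 2.49, whereas the blue squares lie between -0.52 and 0.41.

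On the probe sets used, the regulators themselves were close to level. Nfe2l2 read 11.36 on the t10,c12-CLA array, 11.31 with c9,t11-CLA, 11.38 with DMSO, 11.53 with ritonavir, 11.45 with tenofovir and 11.57 with ethanol. Keap1 read 10.16, 10.36, 10.30, 10.16, 10.31 and 10.33 on the same arrays in the same order. The farthest either gene lay from its comparator over the 7 comparisons was -0.19. A less bright probe set of Nfe2l2 varied more, at 0.01 for t10,c12-CLA over DMSO, 0.38 for t10,c12-CLA over c9,t11-CLA, -0.37 for c9,t11-CLA over DMSO and 0.29 for ritonavir over ethanol. That of Keap1 differed by -0.18 for t10,c12-CLA over DMSO and by -0.08 for ritonavir over ethanol.

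Both quinone and heme genes were highest with t10,c12-CLA. Nqo1, which encodes the quinone reductase NAD(P)H quinone dehydrogenase 1, read 9.60 on the t10,c12-CLA array, 8.92 with c9,t11-CLA, 8.71 with DMSO, 8.75 with ritonavir, 8.31 with tenofovir and 8.20 with ethanol. The 4 arrays with ritonavir were all above the 2 without, and the t10,c12-CLA array was the highest. Of those 4, only the ritonavir array shares the experiment of the 2 without. Hmox1, the gene of heme oxygenase 1, which breaks down heme, read 13.03 with t10,c12-CLA, 12.59 with c9,t11-CLA and 12.53 with DMSO. In the first experiment Hmox1 read 12.44 with ritonavir, 12.35 with tenofovir and 12.42 with ethanol, nearly level.

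Genes of glutathione synthesis and recycling were all higher with t10,c12-CLA than with DMSO or c9,t11-CLA. All 5 genes of the group lay above DMSO, with a median of 0.43, and above c9,t11-CLA, with a median of 0.56. Slc7a11, the cystine transporter subunit that brings in the limiting amino acid, read 8.11 with t10,c12-CLA, 7.00 with c9,t11-CLA, 7.16 with DMSO, 6.94 with ritonavir, 6.47 with tenofovir and 6.57 with ethanol, the last pair just under and just over the detection level. Gclm, the modifier subunit of the glutamate-cysteine ligase that catalyses the limiting step, read 13.00, 11.95, 12.08, 11.30, 11.50 and 11.52 on those arrays. The t10,c12-CLA array was the highest of the 6 for both genes.

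Gclc, the catalytic subunit of the same ligase, read 9.79 with t10,c12-CLA, 9.23 with c9,t11-CLA, 9.36 with DMSO, 9.26 with ritonavir, 8.68 with tenofovir and 8.80 with ethanol. Gss, the synthetase of the last step, differed by 0.30 for t10,c12-CLA over DMSO. Gsr, the reductase that returns oxidised glutathione to its reduced form, read 10.18 with t10,c12-CLA, 10.05 with c9,t11-CLA, 9.92 with DMSO, 9.57 with ritonavir, 10.10 with tenofovir and 10.14 with ethanol. Gsr was lowest on the ritonavir array, and its t10,c12-CLA and ethanol arrays were about level.

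**Figure D2:**
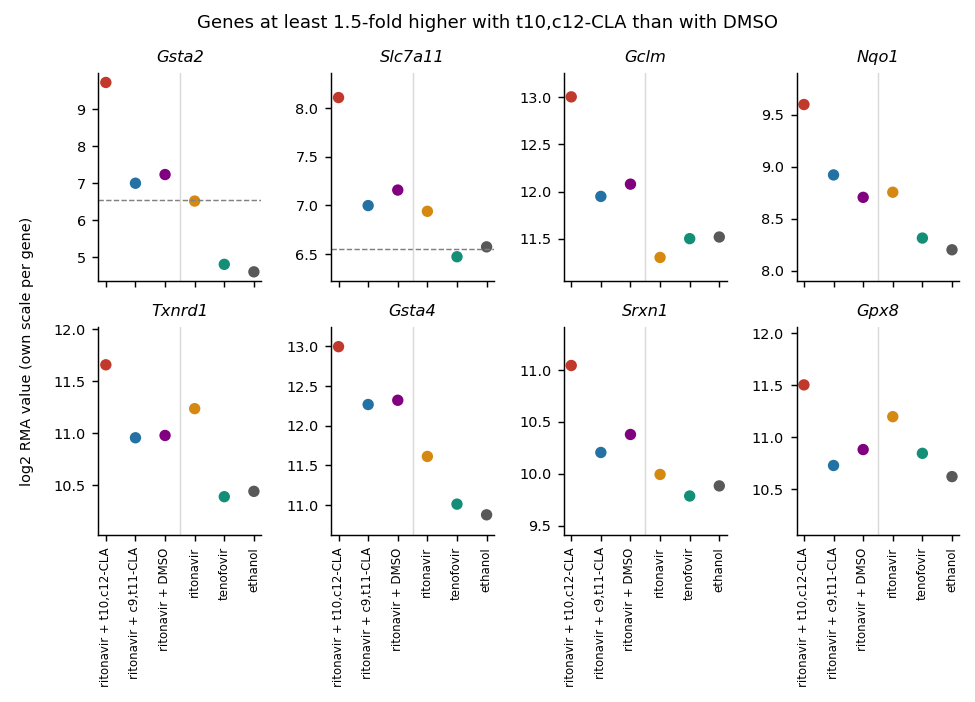
Log2 RMA values on each of the 6 arrays for the 8 genes at least 1.5-fold higher with t10,c12-CLA than with DMSO, each on its own vertical scale. A dashed line marks the detection level of 6.55 where it falls in a panel, and the red point, ritonavir with t10,c12-CLA, is the highest of the 6 in each of the 8 panels.

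Thioredoxin genes divided by member. Txnrd1, the cytosolic thioredoxin reductase, read 11.66 with t10,c12-CLA, 10.96 with c9,t11-CLA, 10.98 with DMSO, 11.24 with ritonavir, 10.39 with tenofovir and 10.44 with ethanol. Srxn1, the sulfiredoxin that repairs overoxidised peroxiredoxins, differed by 0.66 for t10,c12-CLA over DMSO and by 0.84 over c9,t11-CLA. Txn1, thioredoxin itself, and Prdx4, the peroxiredoxin of the endoplasmic reticulum, both differed by 0.35 over DMSO, and Prdx2, a cytosolic peroxiredoxin, by -0.11. Prdx3, the mitochondrial peroxiredoxin, ran the other way, at 11.95 with t10,c12-CLA, 12.36 with c9,t11-CLA, 12.39 with DMSO, 11.73 with ritonavir, 12.43 with tenofovir and 12.46 with ethanol. For Prdx3 the ritonavir and t10,c12-CLA arrays were the 2 lowest.

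Superoxide dismutases and catalase lay on the same side as Prdx3. On the probe sets used, all 4 lay below DMSO on the t10,c12-CLA array, with a median of -0.39, and all 4 below c9,t11-CLA, with a median of -0.33. Sod3, the extracellular dismutase, read 9.06 with t10,c12-CLA, 10.20 with c9,t11-CLA, 9.78 with DMSO, 8.80 with ritonavir, 10.23 with tenofovir and 10.12 with ethanol. Sod1, the cytosolic copper-zinc enzyme, read 13.87, 14.04, 14.03, 13.51, 13.82 and 13.83, lowest on the ritonavir array and highest with c9,t11-CLA and DMSO. Sod2, the mitochondrial enzyme, differed by -0.55 for t10,c12-CLA over DMSO and Cat, catalase, by -0.24. All 9 adipocyte markers with a value were also below DMSO on that array, with a median of -0.85. Their part in these lower values was not tested, and fewer mature cells and less RNA per cell cannot be told apart in RNA of whole cultures.

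Among glutathione peroxidases and transferases a few members stood apart with t10,c12-CLA. Gpx8, a peroxidase of the endoplasmic reticulum, read 11.50 with t10,c12-CLA, 10.73 with c9,t11-CLA, 10.88 with DMSO, 11.20 with ritonavir, 10.85 with tenofovir and 10.62 with ethanol. Gpx3, the plasma-type enzyme, read 6.77, 7.01, 6.83, 6.93, 7.11 and 6.90, all near the detection level. Gpx4, which reduces lipid hydroperoxides, and Gpx7 differed by -0.15 and -0.13 for t10,c12-CLA over DMSO, and Gpx1 by 0.34.

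Gsta2, an alpha class transferase that conjugates glutathione to electrophiles, read 9.73 with t10,c12-CLA, 7.00 with c9,t11-CLA, 7.24 with DMSO, 6.52 with ritonavir, 4.80 with tenofovir and 4.60 with ethanol. The order runs from ethanol and tenofovir through the arrays with ritonavir to t10,c12-CLA. Its probe set may also bind RNA of closely related alpha class genes, and the levels of ritonavir, tenofovir and ethanol lie under the detection level, where order is not relied on. Gsta4, which acts on the lipid peroxidation product 4-hydroxynonenal, read 13.00, 12.27, 12.32, 11.61, 11.01 and 10.88 on the same arrays. Gsto1, the omega class enzyme, differed by 0.46 for t10,c12-CLA over DMSO, Gstm1 by 0.42, Gstp1 by 0.30 and Gsta3 by 0.19. Mgst3, a microsomal transferase, differed by -0.43, and Gstm2, Gstm5, Mgst1 and Mgst2 lay between -0.16 and -0.07.

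On the probe sets used, metal-binding genes differed little across the arrays, but a second set of Mt1 did not share this. Fth1, the ferritin heavy chain that stores iron, read 14.97 with t10,c12-CLA, 14.91 with c9,t11-CLA, 14.92 with DMSO, 14.88 with ritonavir, 14.65 with tenofovir and 14.70 with ethanol. Mt1, a metallothionein that binds zinc and copper, read 13.94, 14.04, 13.96, 13.84, 13.92 and 13.95. The differences of Fth1, Mt1 and Mt2 for t10,c12-CLA over DMSO lay between -0.01 and 0.08. The second probe set of Mt1 differed by -0.20 there, and lay above ethanol by 1.05 on the DMSO array and by 1.71 on the ritonavir array. Values this near the top of the table's range (15.01) can be compressed.

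Of the pentose phosphate enzymes, Pgd, which yields NADPH, read 13.08 with t10,c12-CLA, 12.77 with c9,t11-CLA, 12.82 with DMSO, 12.44 with ritonavir, 12.86 with tenofovir and 12.92 with ethanol. Taldo1 and Tkt, the transaldolase and transketolase of the branch that follows, differed by -0.32 and -0.39 for t10,c12-CLA over DMSO. Pgd and Taldo1 thus lay on opposite sides of the DMSO array. Both were lowest on the ritonavir array.

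The isomers were also set against each other at the same dose and time. On the t10,c12-CLA array Gsta2 (2.73), Slc7a11 (1.11) and Gclm (1.05) were at least 2-fold higher than on the c9,t11-CLA array, 3 of 41 genes where 0.953% of all detected genes were. Sod3 (-1.14) was at least 2-fold lower, 1 of 41, where 1.53% of all were. At 1.5-fold, 10 of 41 were higher and 1 lower, where 3.13% and 4.96% of all detected genes were, with medians of 0.06 over the 41 genes and 0.01 over all. Both this comparison and the one against DMSO use the t10,c12-CLA array, so they are not separate evidence. The shares here too are those of a list made with earlier results of these data known. With c9,t11-CLA over DMSO, 0 of 41 genes were 2-fold apart, where 0.00807% of all were, and 0 were 1.5-fold apart, where 0.17% were. The differences of the 41 ran from -0.52 (Gsta3) to 0.41 (Sod3), with a median of -0.05, and 28 of them were below 0.

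**Figure D3:**
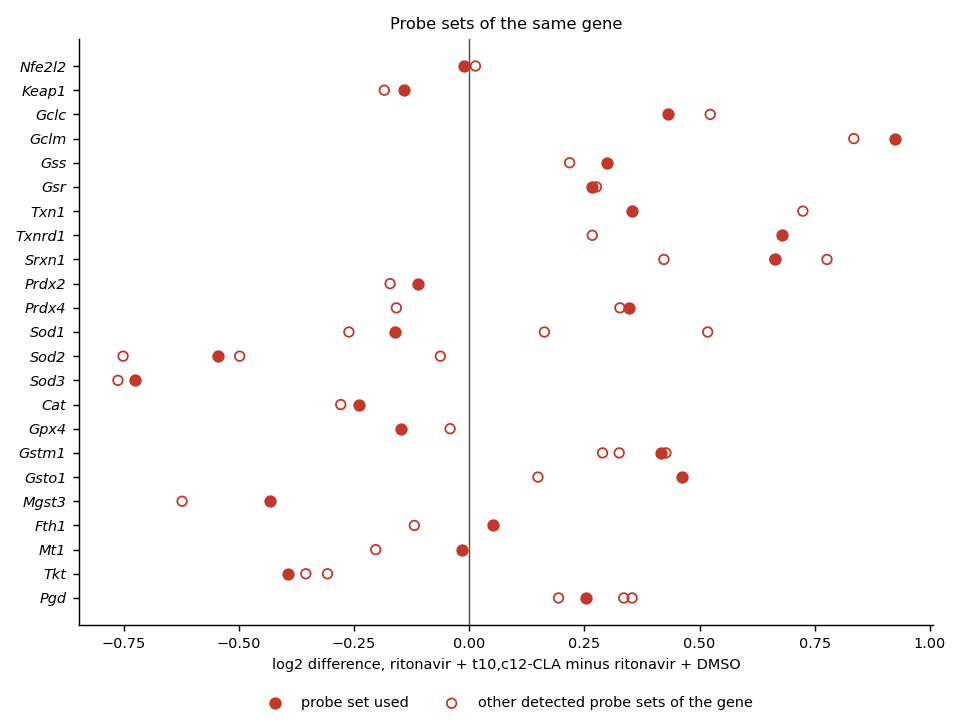
Log2 differences of ritonavir with t10,c12-CLA over ritonavir with DMSO for each detected probe set of the 23 genes with more than 1. Filled circles are the probe sets used and open circles the others. All detected probe sets of Gclc, Gclm, Gss, Gsr, Txn1, Txnrd1 and Srxn1 lie above 0, and those of Sod1 lie on both sides.

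Other probe sets of the same genes were available for 23 genes, 35 probe sets in all that reached the detection level. For t10,c12-CLA over DMSO, 30 of the 35 had the same sign as the probe set used, and so did all 6 that belong to a gene at least 1.5-fold apart. For c9,t11-CLA over DMSO 18 of the 35 had the same sign, and for tenofovir over ethanol 17. The 3 further detected sets of Srxn1 differed by 0.42, 0.66 and 0.78, and the second sets of Gclm and Gclc by 0.84 and 0.52. The second set of Txnrd1 differed by only 0.27, short of 1.5-fold. Further detected sets of Prdx4 differed by -0.16 and 0.33. Those of Sod1 did not share a sign, at -0.26, 0.16 and 0.52. The probe sets of a gene are read on the same array and are not replicates of a treatment.

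Of the genes with a value and a promoter window, 10 held the antioxidant response element core shown above and 26 did not. For t10,c12-CLA over DMSO, 3 of the 10 (Gclm, Txnrd1 and Srxn1) and 4 of the 26 (Gsta2, Slc7a11, Nqo1 and Gpx8) were at least 1.5-fold higher, where 3.11% of all detected genes were, and Gsta4, also past that fold, has no window in the table. The medians were 0.13 and -0.04. The other 7 genes with the core were Pgd (0.25), Gsta3 (0.19), Mt2 (0.08), Nfe2l2 (-0.01), Gstm5 (-0.07), Sod1 (-0.16) and Mgst1 (-0.16).

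Ritonavir was set against ethanol on 2 arrays of separate experiments, with and without DMSO, and both comparisons use the ethanol array. The ethanol array is of the first experiment, so between it and the DMSO array ritonavir, vehicle and experiment cannot be told apart. Gsta4 and Gsto1 were higher than ethanol on both arrays, and Gsta2 and Gsta3 on the DMSO array, while on the ritonavir array Gsta2 and Gsta3 lay under the detection level. On the probe sets used, dismutases, catalase, microsomal transferases and Taldo1 were lower on the ritonavir array. Each lay closer to ethanol or above it on the DMSO array. Further detected sets of Sod1 did not share a sign for ritonavir over ethanol, at -0.17, 0.26 and 0.66, and a further set of Sod2 was level, at -0.02. Of the 35 other detected probe sets, 26 had the same sign as the set used in that comparison. On the DMSO array 3 of 41 genes reached a 2-fold higher value and 0 a 2-fold lower one, where 1.52% and 2.99% of all detected genes did. At 1.5-fold these were 5 and 0, where 6.45% and 7.69% of all were. On the ritonavir array 3 of 41 were 2-fold higher and 4 lower, where 4.56% and 6.39% of all were. At 1.5-fold these were 6 and 7, where 12.4% of all detected genes were higher and 12.4% lower, so the share of the 41 genes past either threshold was not far from that of all genes. Medians of the 41 genes were 0.17 on the DMSO array and 0.11 on the ritonavir array, beside 0.02 and 0.00 over all detected genes.

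**Figure D4:**
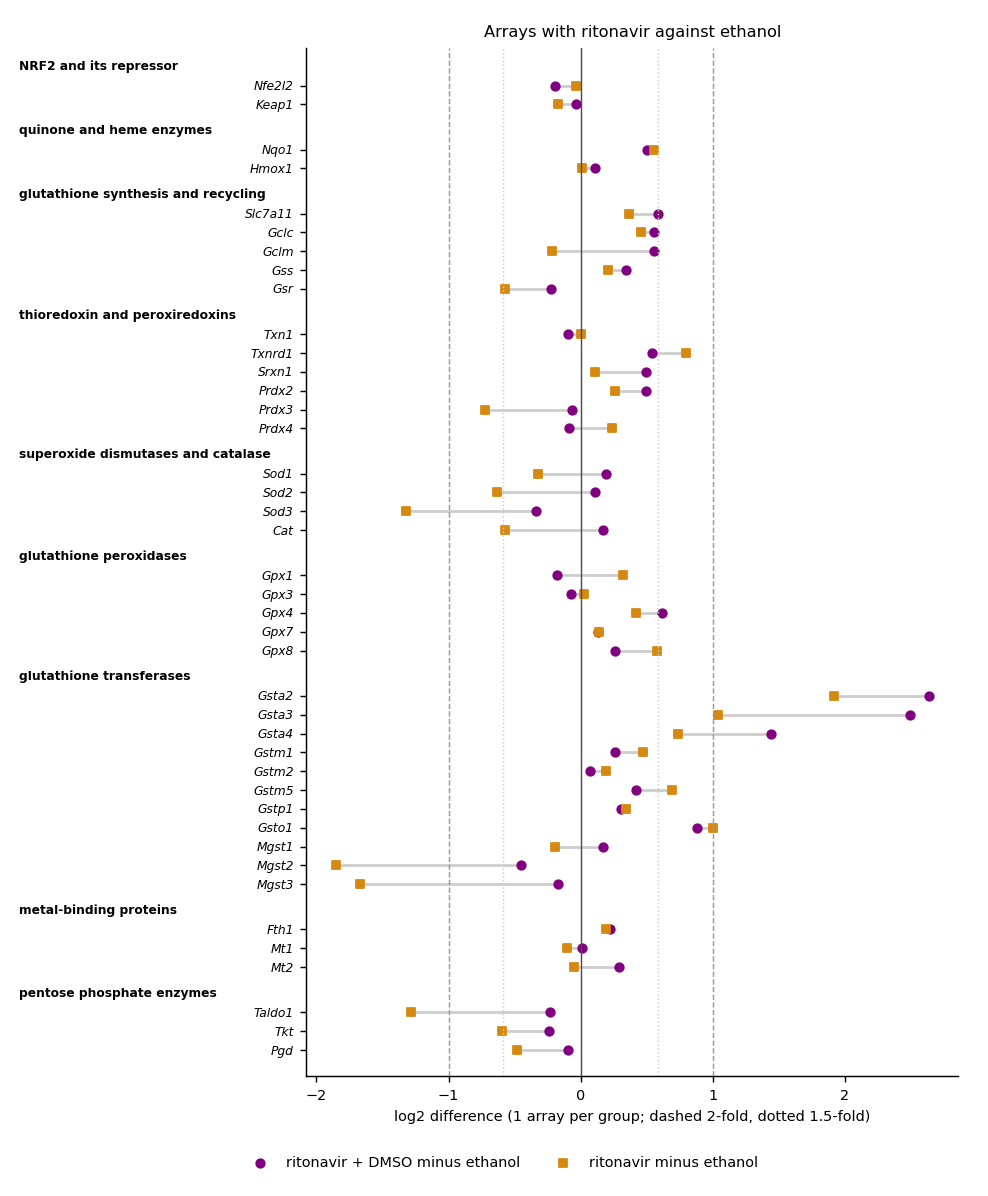
Log2 differences from the ethanol array for the 41 measured genes by role group, with 1 array per group. Purple circles are ritonavir with DMSO and orange squares ritonavir. Both marks of Gsta2, Gsta3, Gsta4 and Gsto1 lie right of 0.8 except the ritonavir mark of Gsta4 at 0.74, and the orange squares of Mgst2, Mgst3, Sod3 and Taldo1 lie left of -1.

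The 3 genes at least 2-fold higher than ethanol on the DMSO array were Gsta2 (2.64), Gsta3 (2.49) and Gsta4 (1.44). On the ritonavir array they were Gsta2 (1.92), Gsta3 (1.04) and Gsto1 (1.00, at the edge of the threshold). Gsta3, another alpha class transferase, read 7.90 with t10,c12-CLA, 7.20 with c9,t11-CLA, 7.72 with DMSO, 6.26 with ritonavir, 5.30 with tenofovir and 5.22 with ethanol. With values raised to the detection level, Gsta2 differed from ethanol by 0.68 and Gsta3 by 1.16 on the DMSO array. Both were under that level on the ritonavir and the ethanol array, so their differences there are 0 once raised and are not relied on. Gsto1, which also has a role in reducing dehydroascorbate, read 13.22 with t10,c12-CLA, 12.61 with c9,t11-CLA, 12.76 with DMSO, 12.88 with ritonavir, 11.95 with tenofovir and 11.88 with ethanol. The 4 arrays with ritonavir were all higher for Gsto1 than the 2 without. Again only the ritonavir array shares the experiment of those 2.

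Short of 2-fold on the DMSO array, Gsto1 differed from ethanol by 0.88, Gpx4 by 0.62 and Slc7a11, Gclm and Gclc by 0.58, 0.56 and 0.55. On the ritonavir array Slc7a11 differed by 0.37, Gclm by -0.22 and Gclc by 0.46. The probe sets of Gclm disagreed there, as the second differed by 0.84. Txnrd1 was 0.54 higher on the DMSO array and 0.80 on the ritonavir array, and Nqo1 0.50 and 0.55. The second probe set of Txnrd1 was only 0.30 higher on both arrays.

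The 4 genes at least 2-fold lower on the ritonavir array were Mgst2 (-1.85), Mgst3 (-1.67), Sod3 (-1.32) and Taldo1 (-1.28). Mgst2, a microsomal transferase related to leukotriene C4 synthase, read 8.62 with t10,c12-CLA, 8.80 with c9,t11-CLA, 8.74 with DMSO, 7.34 with ritonavir, 9.37 with tenofovir and 9.19 with ethanol. Mgst3 read 13.02, 13.42, 13.46, 11.95, 13.69 and 13.62, and Taldo1 12.30, 12.52, 12.62, 11.57, 12.84 and 12.85. For all 3 the ritonavir array was the lowest by more than 0.7 and tenofovir and ethanol were the highest. On the DMSO array the differences of Mgst2, Mgst3, Sod3 and Taldo1 from ethanol were -0.45, -0.17, -0.34 and -0.23. The second probe set of Sod3 differed by 0.05 on the DMSO array and by -0.63 on the ritonavir array.

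**Figure D5:**
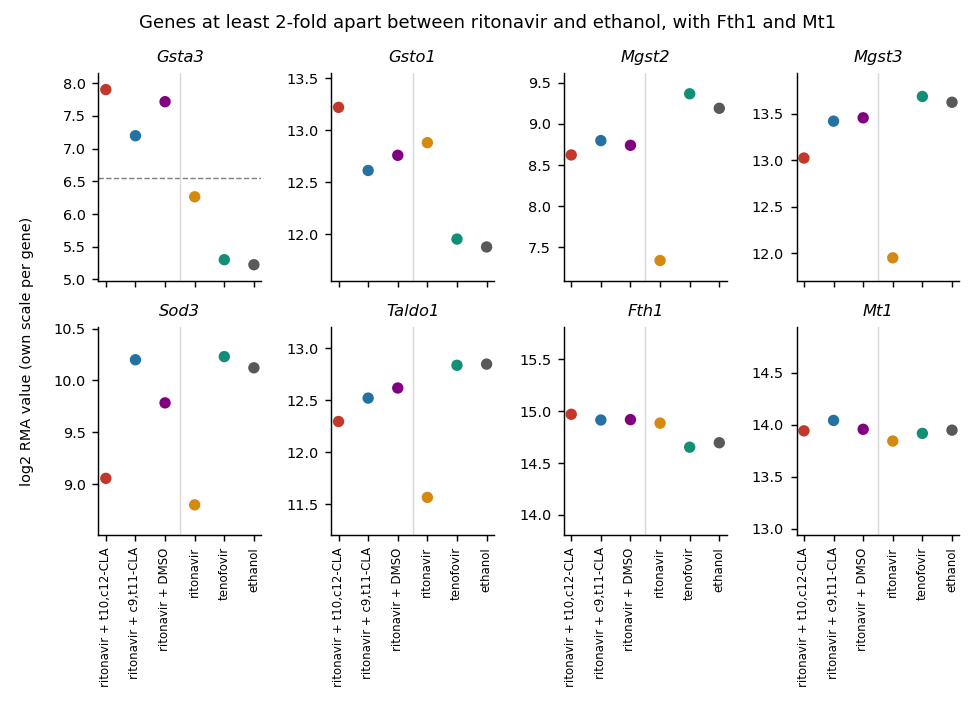
Log2 RMA values on each of the 6 arrays for 6 of the 7 genes at least 2-fold apart between ritonavir and ethanol, with Fth1 and Mt1 beside them, each on its own vertical scale, with a dashed line at the detection level of 6.55 where it falls in a panel. Mgst2, Mgst3, Sod3 and Taldo1 are lowest on the ritonavir array, and Fth1 lies between 14.65 and 14.97 and Mt1 between 13.84 and 14.04.

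By role group, the medians over ethanol on the DMSO array were 0.14 for dismutases and catalase, -0.23 for pentose phosphate enzymes, 0.31 for transferases, 0.13 for peroxidases, 0.55 for glutathione synthesis, 0.22 for thioredoxin genes and 0.22 for metal-binding genes. On the ritonavir array they were -0.60 for dismutases and catalase (4 of 4 below 0) and -0.60 for pentose phosphate enzymes (3 of 3 below 0). They were 0.47 for transferases (8 of 11 above 0), 0.32 for peroxidases (5 of 5 above 0), 0.21 for glutathione synthesis, 0.17 for thioredoxin genes and -0.05 for metal-binding genes. Dismutases and catalase were thus on opposite sides of ethanol by their medians. The value of the metal-binding group depends on the probe sets taken, since those of Mt1 disagree. Those of Sod1 and Tkt also differed in sign on the ritonavir array, where a further set of Tkt lay 0.41 above ethanol. With the probe sets of each gene averaged, the ritonavir medians of dismutases and catalase and of pentose phosphate enzymes were both -0.46.

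Set directly against the ritonavir array, the DMSO array had 4 of 41 genes at least 2-fold higher, where 2.83% of all detected genes were, and 0 lower, where 2.07% were. These were Mgst3 (1.51), Gsta3 (1.45), Mgst2 (1.40) and Taldo1 (1.05). Sod3 lay just short at 0.98. On the probe sets used, all 4 dismutase and catalase genes were above the ritonavir array, with a median of 0.74. The 2 arrays differ in both vehicle and experiment, which cannot be told apart.

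Genes of fat cells were lower on the ritonavir and the t10,c12-CLA array, and to a lesser extent on the DMSO array. The mean of the 9 adipocyte markers with a value, of 10 listed, was 11.85 with t10,c12-CLA, 13.00 with c9,t11-CLA, 12.85 with DMSO, 10.23 with ritonavir, 13.47 with tenofovir and 13.47 with ethanol. All 9 were below DMSO with t10,c12-CLA, 4 of them at least 2-fold, where 1.05% of all detected genes were. All 9 were also below ethanol with ritonavir, 7 of them at least 2-fold, where 6.39% of all detected genes were. They all stayed above the detection level on every array, Adipoq and Fabp4 included. Preadipocyte and fibroblast markers, 7 of 8 detected, averaged 11.32 with t10,c12-CLA, 10.93 with c9,t11-CLA, 10.80 with DMSO, 12.56 with ritonavir, 11.29 with tenofovir and 11.32 with ethanol. They did not move together. With ritonavir Tagln (3.77), Acta2 (2.54), Thy1 (1.67) and Col1a1 (0.89) lay above ethanol. Pdgfra (-0.07), Dlk1 (-0.11) and Col3a1 (0.02) were about level with it. The part of the adipocyte and preadipocyte markers in the lower values of dismutases, catalase, Prdx3, microsomal transferases and pentose phosphate genes was not tested.

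Macrophage markers, 4 of 6 detected, averaged 8.34 with t10,c12-CLA, 7.68 with c9,t11-CLA, 7.84 with DMSO, 7.72 with ritonavir, 7.10 with tenofovir and 7.30 with ethanol. Cd68, which is also a lysosomal gene, was 1.67 higher with t10,c12-CLA than with DMSO, while Adgre1 and Itgam, which define macrophages, stayed under the detection level throughout. The stress genes Ddit3, Atf3 and Trib3 were all above ethanol on both arrays with ritonavir, by medians of 1.59 with DMSO and 1.11 without. Between t10,c12-CLA and DMSO they differed by a median of -0.18. Their part in the values of the NRF2 target genes was not tested.

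Tenofovir left the 41 genes near ethanol. At 2-fold, 0 of 41 were apart, where 0% of all detected genes were, and at 1.5-fold 0 were, where 0.0969% were. The differences ran from -0.12 (Gclc) to 0.22 (Gpx8), with a median of 0.01. On the probe sets used, the 11 transferases were all above 0, with a median of 0.08, and the 4 detected genes of glutathione synthesis other than Gss were below 0. Gsta2 and Gsta3 lay under the detection level on both arrays. Of the 35 other detected probe sets of the 41 genes, only 17 had the same sign as the set used. The spread of all detected genes between these 2 arrays, as a robust SD, was 0.11, so most of these values lie within it.

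A wider list of 78 pathway genes was read beside these, of which 71 had a value that reached the detection level. For ritonavir over ethanol 9 of the 71 were at least 1.5-fold higher and 17 lower, where 12.4% of all detected genes were higher and 12.4% lower. At 2-fold 4 of the 71 were higher and 7 lower, where 4.56% and 6.39% of all detected genes were. The median of the 71 was -0.17. The higher ones were Aldh1a1 (1.66, under the level on both arrays), Msrb3 (1.25), the iron exporter Slc40a1 (1.15) and Gsto2 (1.08). The lower ones were the methionine sulfoxide reductase Msra (-2.63), the carbonyl reductases Cbr3 (-2.57) and Cbr1 (-1.64), Gstz1 (-2.46), the small MAF gene Maff (-2.38), Ces1d (-2.00) and the pentose phosphate isomerase Rpia (-1.25). On the DMSO array the same differences were -1.01 for Msra, -0.91 for Cbr3, -1.08 for Cbr1, -1.07 for Gstz1, -1.60 for Maff, 0.03 for Ces1d and -0.81 for Rpia.

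For t10,c12-CLA over DMSO 1 of the 71 was at least 2-fold higher, Aldh1a1 (1.39, under the level with DMSO), and 3 were lower, Ces1d (-1.68), Gstz1 (-1.37) and Msra (-1.12), where 0.783% and 1.05% of all detected genes were. The median was -0.04, and at 1.5-fold 5 were higher and 6 lower, where 3.11% and 3.96% of all were. Above 0 were 7 of 9 other detoxification genes (median 0.15), 7 of 13 genes of iron and metal handling (0.03), 5 of 10 NRF2 partners and regulators (-0.03) and 10 of 20 genes of glutathione turnover and further transferases (-0.03). In the wider thioredoxin system 3 of 12 were above 0 (-0.20), and among NADPH suppliers 2 of 7 (-0.23). The highest gene of each of these lists, apart from Aldh1a1, was Txnip (0.94), which encodes an inhibitor of thioredoxin, the biliverdin reductase gene Blvrb (0.64), Gsto2 (0.63), Maff (0.51) and the mitochondrial transhydrogenase gene Nnt (0.07). The wider genes therefore lay on both sides of the DMSO array.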

How the data were processed

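Per the labels' protocols, RNA from 4 replicate experiments was pooled for each group before amplification and biotin labelling, and 1 array carried each pool. The authors deposited log2 values of 45101 probe sets on 6 arrays, made with RMA (Affymetrix Expression Console, per the submitters' processing notes). RMA equalises the arrays' distributions, so a shift shared by most genes would be removed. A software version was not found in the labels or notes.

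Probe sets were named through the platform annotation, with symbols updated by gene identifier: 34958 had 1 gene, 932 with several genes were set aside, and 9211 were unlisted. The brightest probe set on average stood for each gene. Genes reaching the table's median (6.55) on at least 1 array counted as detected, 12386 in all. Log2 differences between single arrays were computed for 7 comparisons, and genes at least 2-fold or 1.5-fold apart were counted. With 1 array per group no test was possible, and precision is limited by the number of arrays.

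The members and lists were chosen with earlier results of these data known. Values on all arrays are given for Nfe2l2, Keap1, members 2-fold apart in any comparison and the extremes of each role group for ritonavir over ethanol. Of the wider list, genes 2-fold apart for ritonavir over ethanol are named by rule, and its others were chosen after their values were seen. The alternatives tried were a mean over a gene's probe sets, only probe sets without a name suffix (for several transcripts or cross-hybridisation), no or a stricter detection level (8.77), repeated quantile normalization, lowess detrending with a span of 0.3, raised low values, a 1.5-fold threshold and the other array with ritonavir. The counting step was tested on simulated data. Computation used pandas 2.3.3, numpy 2.4.6 and statsmodels 0.14.6 in Python 3.11.15, and figures matplotlib 3.10.9.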

Additional observations from a re-analysis of the deposited data

How the results depend on the processing

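No paired analysis was possible because each group is 1 array and no comparison comes from a test. A value counted as moved where it shifted by over 0.11, the robust SD over all detected genes between the tenofovir and ethanol arrays, and a count where it changed by over 1.5 times. No difference of at least 2-fold changed sign, while some smaller ones did. All 49 recomputed medians of the measured genes, 48 counts, 173 role group medians and 303 differences of single genes held within these bounds. In contrast, 8 counts, 16 role group medians and 34 differences of single genes did not. The medians used 40 genes with probe sets averaged, 32 without suffixed sets and fewer than 41 at the stricter level. Part of what held could not move. All 41 genes were detected, so dropping the detection filter changed no value. The stricter level left the difference of each gene it kept unchanged. Averaging all probe sets of a gene left 4 genes 2-fold apart for ritonavir over ethanol, against 7, and 2 for t10,c12-CLA over c9,t11-CLA, against 4. Of all 11229 genes detected in that setting, 1069 and 240 were apart. Averaging gave ritonavir medians of -0.46 for dismutases and catalase, 0.35 for transferases, 0.25 for metal-binding genes and -0.46 for pentose phosphate enzymes, and medians of 0.10 for thioredoxin genes and -0.11 for pentose phosphate enzymes for ritonavir with DMSO over ethanol. Without probe sets whose names carry any suffix, either for several transcripts of 1 gene or for cross-hybridisation, 32 of the genes were left. Of these, 0 were 2-fold apart for t10,c12-CLA over DMSO, where 189 of all 10729 genes detected then were. The only usable set of Gsta2 carries the suffix for several transcripts. Medians were then 0.83 for metal-binding genes and -0.81 for pentose phosphate enzymes with ritonavir, and -0.076 for thioredoxin genes, 0.67 for metal-binding genes and -0.42 for pentose phosphate enzymes with ritonavir and DMSO. Only 2 metal-binding genes were left there, Mt1 on its second probe set and Mt2. The pentose phosphate values are those of 1 gene, Tkt, on another probe set. For t10,c12-CLA over DMSO the medians were 0.14 for peroxidases and 0.060 for transferases. The stricter detection level gave -0.0043 for glutathione synthesis with ritonavir and 0.10 for peroxidases with t10,c12-CLA over DMSO, and raised low values gave 0.19 for transferases with ritonavir. Read from the DMSO array in place of the ritonavir array, all 13 differences from ethanol recomputed moved, and that of Sod2 changed sign (0.11, against -0.63). At 1.5-fold the genes apart numbered 13 for ritonavir over ethanol, 5 for ritonavir with DMSO over ethanol, 11 for ritonavir with DMSO over ritonavir, 9 for t10,c12-CLA over DMSO and 11 for t10,c12-CLA over c9,t11-CLA. Of all 12386 detected genes, 3076, 1752, 1810, 876 and 1002 were apart, in the same order. Apart from the settings whose construction shows it, the cause was not tested. Genes under the detection level, Gsta2 and Gsta3 without fatty acid or DMSO, have no reliable order there.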
